A study of Mus musculus with 4 samples.

Results

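Layer 4/5 Rorb intratelencephalic neurons of the mouse primary motor cortex were followed through 4 single-nucleus RNA libraries. Nuclei were chosen by their counts alone. A barcode entered with 500 or more genes, under 5% mitochondrial UMIs, 2 or more UMIs of Slc17a7 plus Sv2b and more of these than of Gad1 plus Gad2. It then needed 3 or more Rorb UMIs, at least 3 of the 7 genes Kcnh5, Pld5, Prr16, Brinp3, Adam33, Gadl1 and Gm42953 detected, at most 3 UMIs of Il1rapl2 plus Deptor and at most 2 of Foxp2 plus Cpa6. A UMI is the tag that counts 1 captured RNA molecule. In all, 1426 of 27085 kept nuclei met the rule, out of 12605 nuclei of the excitatory gate. The ad lib sleep library held 481 of them, the sleep deprivation library 294, the SIK3(WT) vector library 391 and the SIK3(Ex13del) vector library 260.

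All mice were C57BL/6N. The ad lib sleep animals were not sleep deprived, and the sleep deprivation animals were kept awake by gentle handling. The other two groups received a local AAV8 vector (adeno-associated virus) with the human synapsin promoter, which drives expression in neurons. It carried FLAG-tagged SIK3, a salt-inducible kinase, either as AAV8-hSyn-FLAG-SIK3(WT) or as AAV8-hSyn-FLAG-SIK3(Ex13del), the form that the study calls gain of function. Ages, times of day, the length of deprivation and the number of animals per library are not given in the sources used here. Each group was 1 library, so no difference between treatments has a replicate check and no p-value is given. No vector without SIK3 was analysed here, so SIK3, the virus and the injection cannot be told apart against the ad lib sleep library.

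Intratelencephalic neurons are the excitatory cortical cells whose axons stay within the cortex and striatum. Rorb encodes the nuclear receptor ROR beta, which marks the neurons that receive thalamic input in layer 4 of sensory areas. Motor cortex lacks a clear granular layer 4, and its Rorb neurons lie at the border of layers 3 and 5. Layer and projection were not measured in these nuclei, which carry only RNA counts.

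The members held 3215234 to 4603149 UMIs per library. Their median UMI count per nucleus was 8265 in ad lib sleep, 13693.5 in sleep deprivation, 9879 with SIK3(WT) and 10739 with SIK3(Ex13del), and the median number of genes was 3338, 4439, 3690 and 3903 in the same order. Depth per nucleus thus moved with sleep deprivation. Library pairs shared 9 to 16 cell barcodes and no member barcode. Levels below are UMIs summed over the members of a library per 1e6 such UMIs (CPM), and intervals are exact 95% intervals that cover counting error only. The 3 comparison populations came from the same libraries: 1198 layer 2/3 intratelencephalic nuclei, 1876 layer 5 intratelencephalic nuclei chosen by Deptor and Il1rapl2, and 1508 layer 6 corticothalamic nuclei.

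The genes of the rule are a description of the choice and no finding. Rorb stood at 1100 CPM in ad lib sleep, 886 in sleep deprivation, 953 with SIK3(WT) and 983 with SIK3(Ex13del), against 8.14 to 15.5 in layer 2/3 nuclei, 246 to 388 in layer 5 nuclei and 19.5 to 25.8 in layer 6 nuclei. A member carried a median of 9, 10, 9 and 10 Rorb UMIs in the 4 libraries, with a maximum of 77. Kcnh5, a voltage-gated potassium channel, was detected in 92.1% to 93.9% of members, Prr16 in 97.3% to 99.2% and Brinp3 in 95.7% to 97.5%. The other four genes were patchier: Pld5 was detected in 34.7% to 45.9%, Adam33 in 33.8% to 45.8%, Gadl1 in 20.2% to 30.8% and Gm42953 in 61.3% to 67.5%. Nuclei just inside the Rorb threshold, with 3 UMIs, numbered 47, 24, 46 and 30, and those just outside, with 2, numbered 73, 29, 48 and 39. The limit on Il1rapl2 plus Deptor set aside 230, 118, 219 and 160 nuclei that met every other condition, so the border with layer 5 neurons is a chosen one. The limit on Foxp2 plus Cpa6 set aside only 12, 12, 14 and 10.

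Genes outside the rule that are known for layer 4 and upper layers were checked next. Rspo1, a secreted activator of Wnt signalling, stood at 23.6, 27.2, 17.1 and 23 CPM in ad lib sleep, sleep deprivation, SIK3(WT) and SIK3(Ex13del). It stood at 1.33 to 1.58 in layer 2/3, 3.03 to 4.48 in layer 5 and 0.453 to 1.90 in layer 6 nuclei. Whrn, a scaffold protein gene, stood at 27.2, 33.2, 20.4 and 24.3 CPM against 1.82 to 5.33 in layer 2/3, 19.3 to 22.9 in layer 5 and 11.5 to 14.5 in layer 6, so it overlapped with layer 5. Cux2, a homeobox gene of the upper layers, stood at 229, 248, 206 and 242 CPM, below the 278 to 310 of layer 2/3 and above the 45.7 to 52.3 of layer 5 and the 12.2 to 20.4 of layer 6. Cux2 was among the genes that chose the layer 2/3 nuclei, so its level there was partly set by the choice. For Rspo1 and Cux2, every library of the members lay above every library of layer 5 and layer 6. Scnn1a and Endou, also known from layer 4, were near the limit of detection, at 1.54 to 4.78 and 0.440 to 3.11 CPM. Of the layer 4/5 genes outside the rule with a mean of 20 CPM or more, 0 of 5 were 2-fold above layer 2/3 in all 4 libraries. Cux1 and Unc5d were so among 6 against layer 5 and among 5 against layer 6. Some known genes of the label thus set the members apart and others did not.

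**Figure D1:**
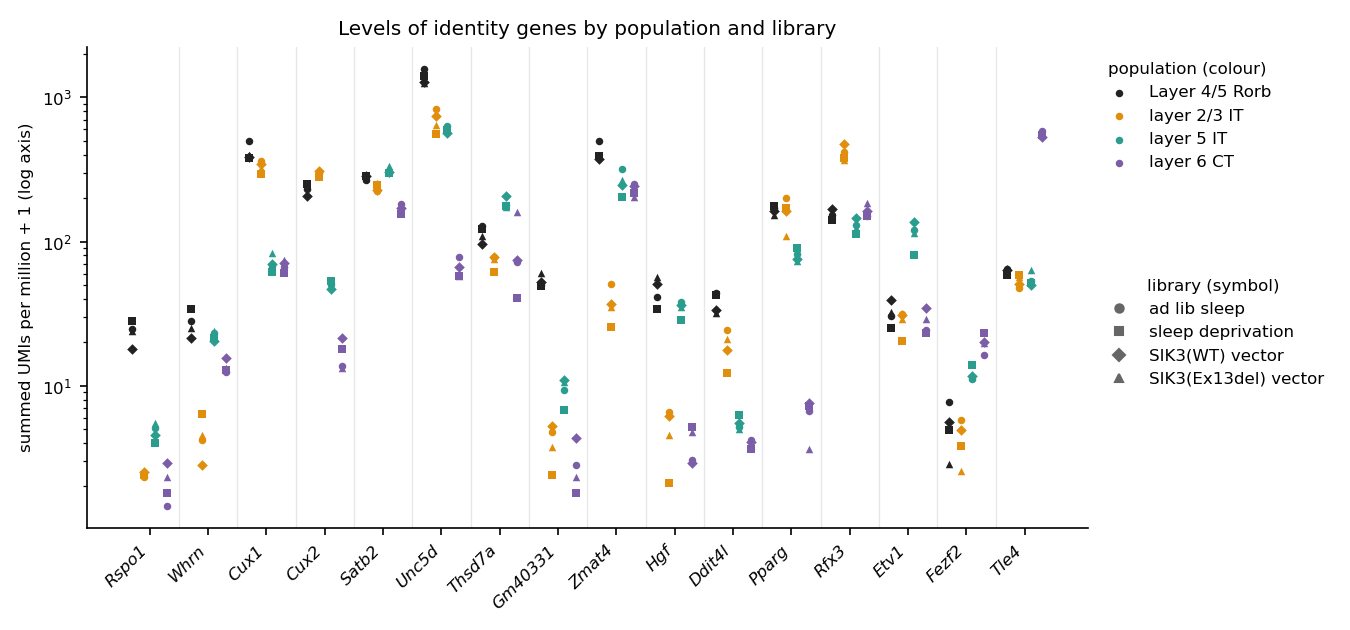
CPM plus 1 (log axis) of identity genes in the Layer 4/5 Rorb nuclei and the 3 comparison populations. Colours are populations and symbols are the 4 libraries. Rspo1 stood at 17.1 to 27.2 CPM in the members and at no more than 4.48 in the others, and Cux2 lay between layer 2/3 and layer 5. Cux2 and Rfx3 were among the genes that chose the layer 2/3 nuclei.

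Markers of other cells were present in the members. Summed over each marker list, layer 2/3 genes reached 685 to 724 CPM in the members against 1357 to 1542 in layer 2/3 nuclei, layer 5 genes 74.9 to 104 against 1506 to 1894 in layer 5 nuclei, and layer 6 corticothalamic genes 461 to 546 against 4846 to 5589 in layer 6 nuclei. Each of these lists holds genes that chose the nuclei, such as Rasgrf2, Il1rapl2 and Foxp2. The gaps were thus partly set by the gates. Of the layer 6 corticothalamic sum in the members, Hs3st4 made up 203 to 334 CPM. It stood at 25.6 to 45.6 CPM in layer 2/3 nuclei. The 8 inhibitory markers summed to 182, 246, 249 and 160 CPM in ad lib sleep, sleep deprivation, SIK3(WT) and SIK3(Ex13del). Oligodendrocyte markers summed to 254, 278, 234 and 295 CPM, microglial markers to 225, 176, 184 and 169, and vascular markers to 42.8, 58.0, 26.8 and 27.7. The astrocyte list gave 1909, 1718, 1752 and 1726 CPM, but it holds Rorb itself, and Slc1a2, a glutamate transporter gene, made up 624 to 703 of it. Aqp4 and Gja1, which define astrocytes, stood at 3.08 to 4.67 and 7.80 to 10.6 CPM. The striatal list gave 848, 1199, 1049 and 999 CPM, of which Pde10a, a phosphodiesterase gene, made up 804 to 1150, while the dopamine receptor genes Drd1 and Drd2 stood at 1.11 to 2.17 and 0.652 to 2.20. Nuclei with the top 5% of UMIs or with 3 or more UMIs of other classes made up 32.0%, 47.6%, 37.9% and 37.3% of the members. No doublet caller was run, and these nuclei are called doublet-like only by that definition. Their share moved with sleep deprivation as depth did.

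Members made up 11.6% (10.7 to 12.6) of the excitatory nuclei in ad lib sleep, 11.1% (9.96 to 12.4) in sleep deprivation, 12.1% (11.0 to 13.3) with SIK3(WT) and 260 of 2600 (8.87% to 11.2%) with SIK3(Ex13del). The intervals of all 4 libraries overlapped. With excitatory nuclei thinned to 5000 UMIs first, the shares were 11.7% (10.4 to 13), 10.1% (8.69 to 11.6), 10.6% (9.29 to 12) and 8.66% (7.36 to 10.1), and the intervals of ad lib sleep and SIK3(Ex13del) no longer overlapped. Of all kept nuclei, the intervals of SIK3(WT), 5.26% to 6.40%, and SIK3(Ex13del), 3.95% to 5.03%, did not overlap.

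Against layer 2/3 neurons, 91 of 7084 genes (1.28%) were at least 2-fold higher in all 4 libraries and 85 (1.20%) at least 2-fold lower, with a mean of 20 CPM or more and the genes of the rules left out. Zmat4, a zinc finger gene, stood at 495, 392, 375 and 399 CPM in the 4 libraries against 24.7 to 49.9 in layer 2/3. Scn9a, the sodium channel Nav1.7, stood at 208, 130, 188 and 233 CPM against 16.8 to 26.4. Hgf, the hepatocyte growth factor gene, stood at 40.1, 32.8, 49.9 and 55.4 CPM against 1.12 to 5.60, and Kcnk2, the potassium leak channel TREK-1, at 107 to 129 against 15.2 to 15.8. On the lower side were Camk2d, a calcium and calmodulin kinase subunit, at 24.5 to 42.3 CPM against 168 to 196, and Grik4, a kainate receptor subunit, at 43.7 to 50.2 against 188 to 258.

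Against layer 5 intratelencephalic neurons the contrast was smaller in number, with 38 of 7014 genes (0.542%) higher and 55 (0.784%) lower. Ddit4l, an inhibitor of mTOR signalling, stood at 30.8 to 43.0 CPM against 3.98 to 5.30. Zfhx4, a homeodomain zinc finger gene, stood at 107 to 149 CPM against 18.1 to 29.0, and Calb1, the calcium buffer calbindin, at 49.7 to 56.9 against 11.4 to 12.1. On the lower side Rspo2 stood at 6.22 to 15.8 CPM against 79.9 to 83.3, the reverse of its relative Rspo1. Plcxd3, a phospholipase-like gene, stood at 13 to 21.2 CPM against 101 to 117.

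Against layer 6 corticothalamic neurons 211 of 7025 genes (3.0%) were higher and 184 (2.62%) lower. Pparg, a nuclear receptor, stood at 152 to 174 CPM against 2.66 to 6.64, Pdzrn3, a ubiquitin ligase, at 526 to 622 against 17.5 to 39.9, and Unc5d, a netrin receptor, at 1247 to 1575 against 56.2 to 77.0. Syt6, a synaptotagmin, stood at 1.10 to 3.48 CPM against 112 to 169 and Sema5a, a semaphorin, at 3.74 to 8.24 against 160 to 192. All these differences between populations are descriptions, since the same counts chose the nuclei.

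**Figure D2:**
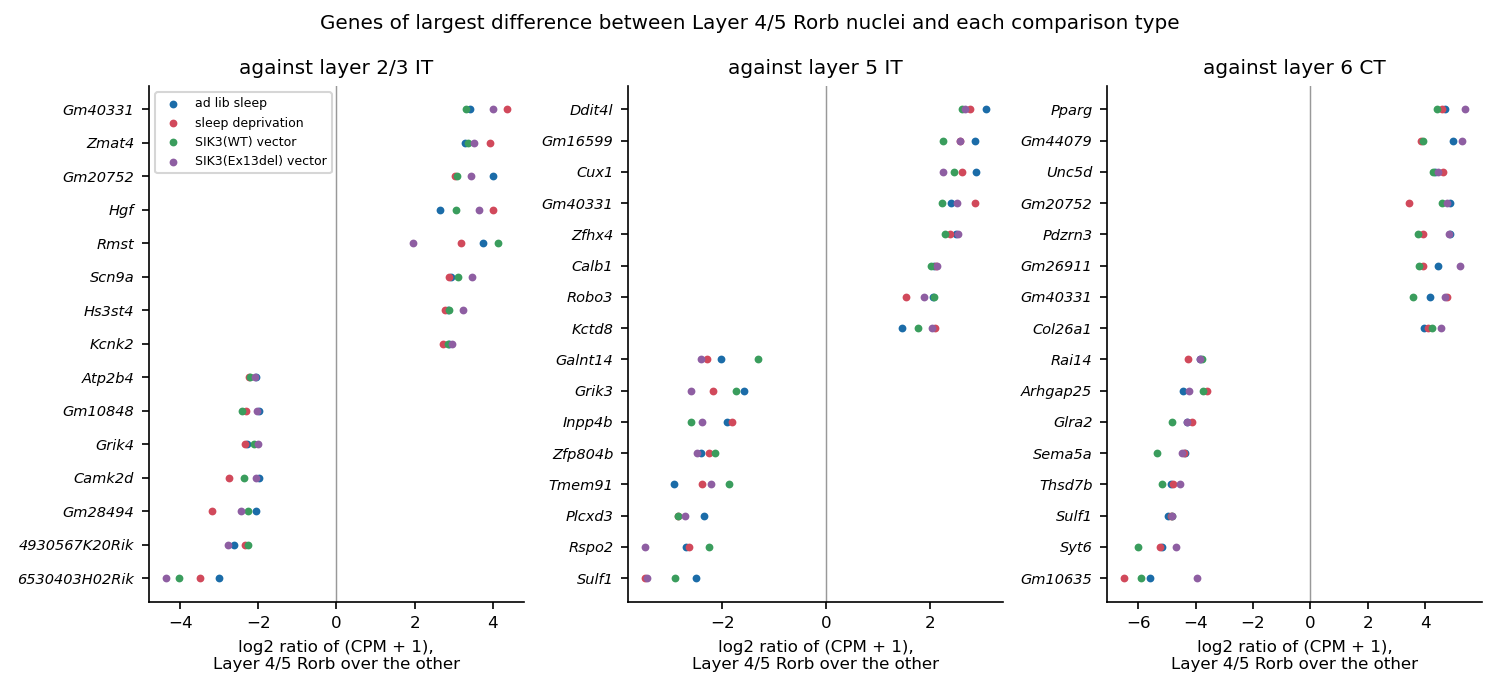
Genes of largest difference between Layer 4/5 Rorb nuclei and layer 2/3, layer 5 and layer 6 nuclei, as log2 ratios of CPM plus 1. Each point is 1 of the 4 libraries. Zmat4 lay above layer 2/3, and Pparg above layer 6, in every library.

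Some glutamate receptor genes differed from those of the neighbours, in both directions. Of 14 measured AMPA receptor and auxiliary subunit genes, 2 were 2-fold higher and 1 lower than in layer 2/3, against 1.28% and 1.20% of all genes. The auxiliary subunit Cnih3 stood at 92.0, 84.9, 89.7 and 93.9 CPM against 15.7 to 22.1 in layer 2/3, close to the 102 to 114 of layer 5. Shisa6 stood at 82.7, 129, 88.4 and 77.1 CPM against 17.0 to 31.2 in layer 2/3. Gsg1l was the lower one, at 62.4, 90.6, 76.7 and 68.7 CPM against 182 to 230 in layer 2/3 and 17.5 to 38.5 in layer 5, so it was intermediate. Grik1, a kainate receptor subunit, stood at 99.6, 76.3, 64.2 and 75.3 CPM, above every other population, where it ran from 9.63 to 44.9. Among GABA-A genes Gabrg3 was lower than in all 3 populations, at 274 to 333 CPM against 669 to 813, 766 to 847 and 1096 to 1219.

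A few receptors of neuromodulators differed. Hrh3, a histamine receptor gene, stood at 57.5, 34.5, 59.6 and 56.0 CPM against 11.2 to 14.1 in layer 2/3, 44.4 to 85.3 in layer 5 and 12 to 21.7 in layer 6. Htr1f, a serotonin receptor gene, stood at 144 to 185 CPM, above layer 2/3 (40.6 to 52.4) and below layer 6 (460 to 552). Chrm2, a muscarinic receptor gene, stood at 80.4 to 121 CPM against 10.2 to 24.4 in layer 6, and Hcrtr2, an orexin receptor gene, at 2.67 to 4.34 against 27.8 to 45.6. Adra1b, an adrenergic receptor gene, stood at 17.7 to 23.5 CPM against 53.8 to 67.7 in layer 5. Of the 13 measured neuromodulator receptor genes, 2 were higher and 0 lower than in layer 2/3 by this rule, 0 and 1 against layer 5, and 3 and 2 against layer 6. The shares of all genes were 1.28% and 1.20%, 0.542% and 0.784%, and 3.0% and 2.62%.

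Axon guidance and adhesion genes gave 2 higher and 5 lower of 36 against layer 2/3, 2 and 3 against layer 5, and 8 and 10 against layer 6, beside 1.28% and 1.20%, 0.542% and 0.784%, and 3.0% and 2.62% of all genes. Cdh12, a cadherin, stood at 1199 to 1277 CPM against 460 to 515 in layer 2/3, and the netrin receptor Unc5c at 494 to 553 against 153 to 232. Epha3, an ephrin receptor, was on the lower side at 35.6 to 49.2 CPM against 141 to 175. Among layer transcription factors Tshz3 stood above layer 2/3 at 207 to 251 CPM against 81.1 to 124, and Etv1 stood below layer 5 at 24.3 to 38.0 CPM against 79.2 to 135. No gene of the immediate-early, cholesterol, heat-shock or postsynaptic scaffold lists passed 2-fold against layer 2/3 or layer 5.

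Cux2 was detected in some members and not in others. Few Cux2 UMIs are drawn per nucleus at 5000 UMIs, so a member can lack one by counting alone. After each member with 5000 or more UMIs was thinned to 5000, Cux2 was detected in 62.8% (57.9 to 67.5), 61.5% (55.6 to 67.1), 57.9% (52.6 to 63.0) and 63.9% (57.5 to 70.0) of members in ad lib sleep, sleep deprivation, SIK3(WT) and SIK3(Ex13del). This left out 70, 6, 30 and 19 shallower members, and the unthinned shares were 76.5%, 83.3%, 72.6% and 79.6%. In layer 6 nuclei thinned the same way the share was 4.75% to 6.34%. Rspo1 was detected in 13.1%, 15.3%, 9.42% and 14.5% of thinned members, against 0.238% to 0.826% in layer 6. Members with 2 or more Cux2 UMIs were then set beside members with none. How far this division reflects counting was not tested. Differences are means over the 4 libraries on a log2 scale with 5 CPM added. They were 0.75 for Ipcef1, 0.72 for Nell1, 0.70 for Stxbp6, 0.57 for Cux1 and 0.54 for Unc5d. On the lower side they were -1.37 for Gpc5, -1.24 for Zfp804b, -1.04 for Luzp2 and Robo1, -0.85 for Esrrg and -0.83 for Ldb2. Each of these had the same sign in all 4 libraries. Unc5d stood at 2067, 1808, 1708 and 1431 CPM in the high Cux2 members. These genes were chosen after their values were seen.

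Sleep deprivation was compared with ad lib sleep by size, a gene being counted when its ratio was 1.5 or more, or its inverse, at a mean of 20 CPM. Of 7095 genes, 191 (2.69%) were higher and 201 (2.83%) lower in the members. Serinc2, a serine incorporator family gene, stood at 32.2 CPM in sleep deprivation against 8.47 in ad lib sleep, a ratio of 3.80 (2.64 to 5.58). With nuclei thinned to 5000 UMIs before the rule its ratio was 2.04. Arc, an activity-induced synaptic gene, stood at 56.7 against 18.3 CPM, a ratio of 3.1 (2.41 to 4.03), and at 1.82 after thinning. Arc stood at 37.4 and 37.6 CPM in the SIK3(WT) and SIK3(Ex13del) libraries, between these values. Its ratio under sleep deprivation was 2.85 in layer 2/3, 1.97 in layer 5 and 1.02 in layer 6. Egr3, an activity-induced transcription factor gene, stood at 33.9 against 14 CPM, a ratio of 2.41 (1.79 to 3.29), and at 4.18 after thinning.

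Fgf1, a fibroblast growth factor gene, stood at 187 CPM in sleep deprivation against 64.6 in ad lib sleep, a ratio of 2.89 (2.53 to 3.31). It stood at 72.5 CPM with SIK3(WT) and 90.2 with SIK3(Ex13del). The noncoding genes Gm5820, at 35.8 against 12.3 CPM, and 9630014M24Rik, at 99.7 against 37.4, are annotated next to Fgf1, the first overlapping it on the other strand, and whether the counting used strand is not given in the sources used here. Kctd8, an auxiliary subunit of GABA-B receptors, stood at 146 against 69.5 CPM, a ratio of 2.11 (1.84 to 2.42), and at 131 and 139 CPM in the vector libraries. Cdh13, a cadherin, stood at 97.8 against 45.7 CPM, a ratio of 2.14, which was 1.53 after thinning and 1.25 without doublet-like nuclei.

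The lowest ratio was that of the noncoding gene Gm20752, at 18.5 CPM in sleep deprivation against 101 in ad lib sleep, a ratio of 0.183 (0.143 to 0.231). Hunk, a kinase of the same wider family as the salt-inducible kinases, stood at 18.2 against 58.8 CPM, a ratio of 0.310 (0.240 to 0.398). It stood at 25.7 and 32.0 CPM in the vector libraries. Dcx, the microtubule-binding doublecortin gene, stood at 69.3 against 156 CPM, a ratio of 0.445 (0.389 to 0.509), and Slit2, an axon guidance ligand, at 99.1 against 202. Pamr1, at 21.7 against 63.5 CPM, and Rad51ap2, at 22.6 against 66.6, were lower to a like degree. Without doublet-like nuclei they parted, with ratios of 0.373 for Pamr1 and 0.533 for Rad51ap2. Sst, the neuropeptide somatostatin, stood at 13.7 against 39.9 CPM, a ratio of 0.343 (0.253 to 0.460). The 63 Sst UMIs of sleep deprivation lay in 56 members, and the 179 of ad lib sleep in 118. A single ad lib member held 36 Sst UMIs, and without the 3 members of most Sst UMIs in each library the ratio was 0.399. In the comparison populations the Sst ratio ran from 0.463 to 0.617. Whether the Sst UMIs came from the members themselves was not tested.

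The start regions of a few of these genes are shown to compare a known motif. CREB, a target of salt-inducible kinase signalling through its coactivators, binds the cAMP response element TGACGTCA. Promoters are from RefSeq (GRCm38.p6), 250 bases before to 50 after the start, and 63 of 101 named genes had one. Kctd8 (chr5:69341660-69341959, minus strand) and Sst (chr16:23890795-23891094, minus strand) each held this element, which was in 1.79% of 32851 promoters on either strand. Kctd8 was higher and Sst lower in sleep deprivation, and the part of the element in either ratio was not tested. Nor was it tested whether the Sst UMIs came from the members themselves. Serinc2 (chr4:130275537-130275836, minus strand), a start of 3 listed, held only its core TGACG, which is part of the full element and was in 20.8%. Fkbp5 (chr17:28486100-28486399, minus strand) held the E-box CACGTG, bound by clock factors, which was in 7.15%. The ROR element core TAGGTCA was searched too and was in 2.61% of promoters. Capitals mark these letters, and a match is a description only.
Kctd8: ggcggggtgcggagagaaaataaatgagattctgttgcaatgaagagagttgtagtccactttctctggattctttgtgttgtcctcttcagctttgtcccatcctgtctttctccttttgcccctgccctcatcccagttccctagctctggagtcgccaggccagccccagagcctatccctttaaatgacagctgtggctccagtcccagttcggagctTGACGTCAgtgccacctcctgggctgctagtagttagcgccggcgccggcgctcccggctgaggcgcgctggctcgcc
Sst: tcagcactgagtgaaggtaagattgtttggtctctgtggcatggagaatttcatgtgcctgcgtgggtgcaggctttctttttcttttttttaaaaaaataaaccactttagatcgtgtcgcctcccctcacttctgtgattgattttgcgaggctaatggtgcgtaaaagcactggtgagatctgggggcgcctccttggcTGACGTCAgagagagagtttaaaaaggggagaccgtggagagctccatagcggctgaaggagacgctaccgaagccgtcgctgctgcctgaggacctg
Serinc2: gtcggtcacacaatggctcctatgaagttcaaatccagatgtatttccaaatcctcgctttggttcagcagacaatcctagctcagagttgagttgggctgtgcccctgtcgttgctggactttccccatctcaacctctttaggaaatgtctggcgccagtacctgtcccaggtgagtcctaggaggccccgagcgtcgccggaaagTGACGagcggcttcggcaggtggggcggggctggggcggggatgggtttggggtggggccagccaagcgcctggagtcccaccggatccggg
Fkbp5: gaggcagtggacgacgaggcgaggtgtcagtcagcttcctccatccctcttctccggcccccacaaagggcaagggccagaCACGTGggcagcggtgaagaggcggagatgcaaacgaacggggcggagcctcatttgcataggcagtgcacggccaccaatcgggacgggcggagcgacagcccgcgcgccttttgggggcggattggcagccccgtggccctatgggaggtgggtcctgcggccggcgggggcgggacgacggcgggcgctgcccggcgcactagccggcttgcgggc

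**Figure D3:**
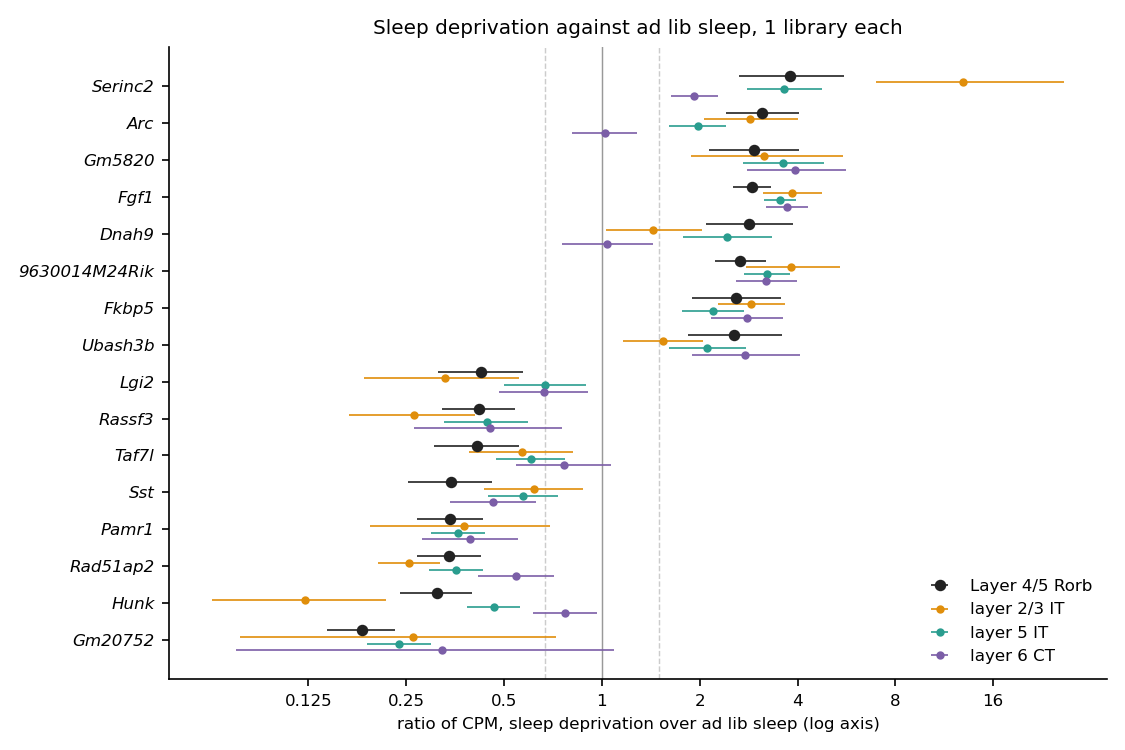
Ratio of CPM in sleep deprivation over ad lib sleep (log axis) with exact 95% intervals, for the genes of highest and lowest ratio in Layer 4/5 Rorb nuclei and for the same genes in the comparison populations. Serinc2 had a ratio of 3.80 and Gm20752 of 0.183 in the members.

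Glucocorticoid-responsive genes gave the largest median of the function lists. Of 13 measured at 5 CPM or more, 10 were higher in sleep deprivation and 7 were at least 1.5-fold higher (53.8%), against 4.55% of all 12074 genes at that level. The median log2 ratio was 0.59, against -0.01 for all genes. It was 0.37 in layer 2/3, 0.10 in layer 5 and 0.34 in layer 6. In the members it was 0.36 after thinning, 0.37 without doublet-like nuclei and 0.24 when only genes of 20 CPM or more entered. Fkbp5, a co-chaperone of the glucocorticoid receptor, stood at 32.8 CPM in sleep deprivation against 12.7 in ad lib sleep, a ratio of 2.58 (1.89 to 3.57) that was 1.38 after thinning. Klf9, a transcription factor gene, stood at 149 against 84.2 CPM, and Zbtb16, another, at 191 against 127, whose ratio of 1.51 was 1.28 after thinning. Nr3c1, the receptor itself, was not among the higher genes, at 156 against 180 CPM.

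Heat-shock genes were higher in 12 of 14, with a median log2 ratio of 0.30, and 3 were past 1.5-fold. Of all 12074 genes at 5 CPM or more, 5951 were higher and 4.55% were at least 1.5-fold higher. The chaperone genes Hsp90ab1, at 379 against 246 CPM, Hspa8, at 292 against 186, and Hsph1, at 73.6 against 42.1, had ratios of 1.54 (1.43 to 1.66), 1.58 (1.44 to 1.72) and 1.75 (1.46 to 2.10). Without doublet-like nuclei Hsp90ab1 and Hsph1 had 1.34 and 1.42, and after thinning 1.46 and 2.42. The vector libraries lay near ad lib sleep for Hspa8, at 182 and 181 CPM. Cholesterol synthesis genes went the other way. Of 20, 4 were higher and 5 were at least 1.5-fold lower (25%), against 6.15% of all genes at that level, with a median of -0.21. The lanosterol synthase gene Lss stood at 5.87 against 16.5 CPM and Sqle, squalene epoxidase, at 11.9 against 19.8. Among cytoplasmic messages, 25 of 27 ribosomal protein genes were higher, with a median of 0.23, and 10 of 13 mitochondrially encoded genes, with a median of 0.29. Their part in the other lists was not tested.

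Activity-induced genes were uneven. Of 14 immediate-early genes 11 were higher, with a median of 0.23, but only 2 passed 1.5-fold upward and 1 downward, and Nr4a1 stood at 63.7 against 60.4 CPM. The list median was -0.02 in layer 2/3, 0.03 in layer 5 and -0.56 in layer 6. Of 18 later activity genes 7 were higher, 2 passed 1.5-fold upward and 3 downward, with a median of -0.13. Among all genes at 5 CPM or more, 4.55% passed 1.5-fold upward and 6.15% downward. Vgf, a neuropeptide precursor gene, stood at 49.7 against 27.6 CPM, a ratio of 1.80 that was 1.41 after thinning. Homer1, a synaptic scaffold gene, stood at 365 against 294 CPM, a ratio of 1.24 that was 1.04 after thinning. Pcsk1, a prohormone convertase gene, stood at 25.2 against 39.9 CPM, a ratio of 0.632 (0.496 to 0.803). Feedback regulators of MAP kinase signalling were higher in 6 of 7, with Spred1 at 197 against 143 CPM and Spred2 at 194 against 135, none past 1.5-fold. The list median of 0.32 became -0.02 after thinning.

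Synaptic genes split by subunit. Of 16 postsynaptic scaffold genes 15 were higher, with a median of 0.25 and 1 past 1.5-fold, Shank1, at 197 against 121 CPM, whose ratio of 1.63 was 1.43 without doublet-like nuclei. Of 14 AMPA receptor genes 10 were higher and 4 passed 1.5-fold. Beside these lists, 4.55% of all genes at 5 CPM or more were 1.5-fold higher and 6.15% lower. Gria1 stood at 596 against 388 CPM, a ratio of 1.54 (1.45 to 1.63), while Gria2 stood at 1497 against 1944, a ratio of 0.770 (0.746 to 0.795), and Gria4 at 943 against 1264. The auxiliary subunit Cnih2 stood at 28.5 against 12.3 CPM, a ratio of 2.32 (1.68 to 3.24), and Cacng8 at 45 against 26.3. Of 14 GABA-A genes 5 were higher and none passed 1.5-fold. Adora1, the adenosine A1 receptor gene, stood at 55.8 against 32.5 CPM, a ratio of 1.72 (1.40 to 2.12), and Hrh3 at 34.5 against 57.5, a ratio of 0.601 (0.490 to 0.735) that was 0.852 after thinning. The calcium channel subunit gene Cacna2d3 stood at 1912 against 1228 CPM.

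**Figure D4:**
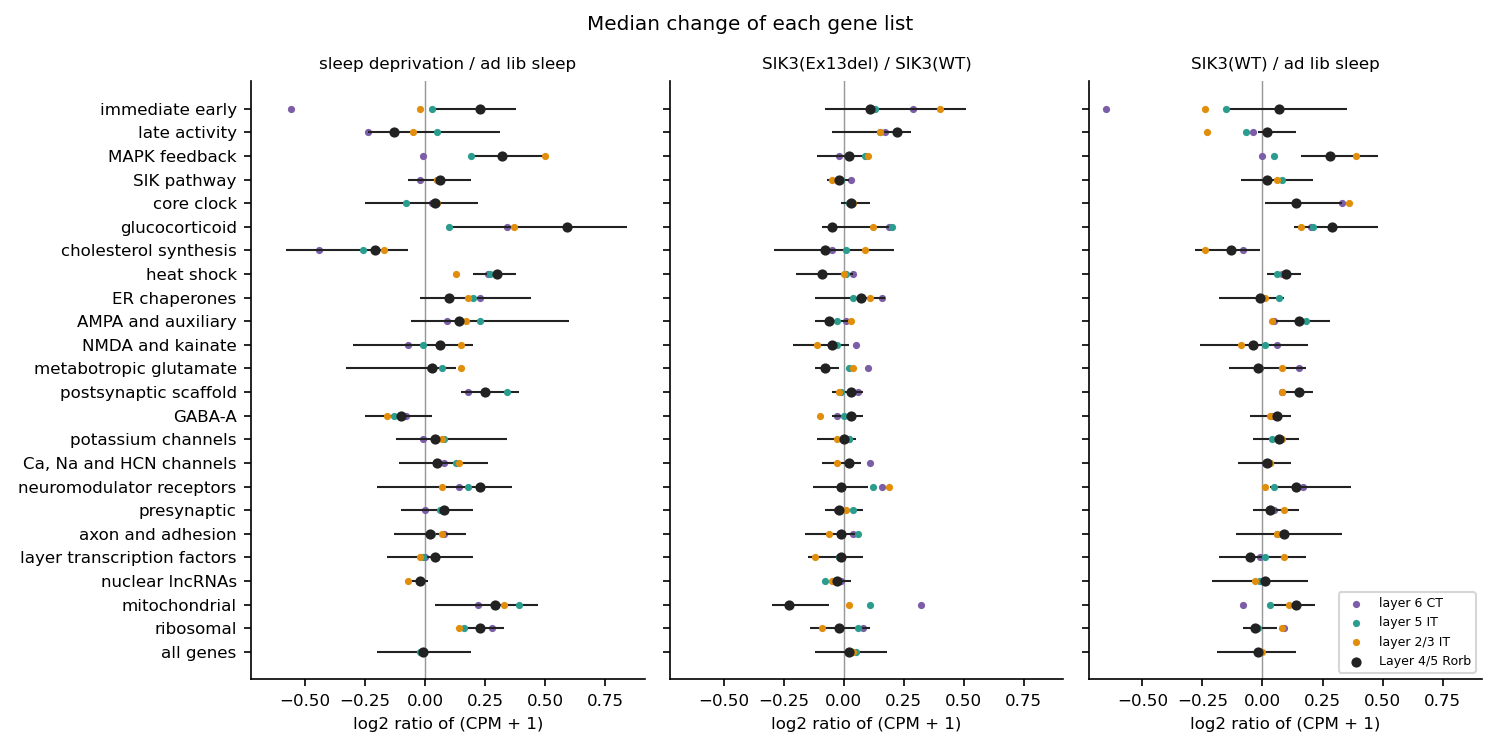
Median log2 ratio of each gene list in the 3 comparisons, for Layer 4/5 Rorb nuclei and the comparison populations. In sleep deprivation the glucocorticoid list had a median of 0.59 and the cholesterol list of -0.21 in the members.

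The vector libraries were read for the vector itself first. The deposited feature WPRE_pA, part of the vector, had 0 UMIs in the 481 ad lib and 294 sleep-deprived members, which allows up to 0.764% and 1.25% of nuclei with a UMI. It stood at 35.2 CPM (29.9 to 41.1) with SIK3(WT) and 31.4 (25.6 to 38.2) with SIK3(Ex13del), intervals that overlapped. Layer 2/3 nuclei held more, at 103 and 98.8 CPM, and layer 5 nuclei 72.9 and 55.1. In layer 2/3, 3 nuclei held 209 of the 339 UMIs with SIK3(WT), and 5 held 155 of the 251 with SIK3(Ex13del). Layer 6 nuclei stood at 40.8 (34.9 to 47.4) and 17.5 CPM (13.9 to 21.8), the second below the members. The levels of the members rested partly on few nuclei too. With SIK3(WT) 1 member held 44 of the 160 UMIs, and with SIK3(Ex13del) 2 members held 33 of the 101. No layer 6 nucleus held more than 9 and 5 UMIs, and with SIK3(Ex13del) 18.1% (14.2 to 22.5) of them had at least 1. Oligodendrocyte nuclei, at 92.9 and 133 CPM, and astrocyte nuclei, at 57.3 and 56.6, also stood above the members. At least 1 such UMI was found in 19.9% (16.1 to 24.3) and 20.8% (16 to 26.2) of members. Oligodendrocyte nuclei gave 17.7% and 21.5% at a median of 2156 and 2354 UMIs, so a single UMI is not read here as a transduced neuron. The source of these UMIs was not tested. Nuclei with 3 or more numbered 8 (2.05%) and 3 (1.15%). Sik3, whose count can include vector transcripts, stood at 193 and 206 CPM, a ratio of 1.07 (0.962 to 1.18), and at 167 in ad lib sleep.

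SIK3(Ex13del) against SIK3(WT) gave 52 of 7045 genes (0.738%) at least 1.5-fold higher and 27 (0.383%) lower. With nuclei thinned to 5000 UMIs these counts were 425 and 301, against 411 and 430 in sleep deprivation. Thinning left 147 SIK3(Ex13del) and 225 SIK3(WT) members, so thinned ratios rest on fewer UMIs and carry more counting error. Among genes with a mean of 20 CPM or more and at least 100 UMIs, the highest ratio was that of AC149090.1, annotated on an unplaced scaffold, at 415 CPM against 180, a ratio of 2.30 (2.11 to 2.52). It stood at 447 and 497 CPM in ad lib sleep and sleep deprivation, so the SIK3(WT) library was the low one. Gm19951, a noncoding gene, stood at 65.6 against 35.2 CPM, and at 29.2 and 28.2 in the libraries without vector, so there SIK3(Ex13del) was the high one. Mtus1 stood at 27.1 against 14.9 CPM.

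Several of the lowest ratios rested on few nuclei. Erbb4, the neuregulin receptor gene and an interneuron marker, stood at 70.0 CPM with SIK3(Ex13del) against 137 with SIK3(WT), a ratio of 0.512. Just 3 SIK3(WT) members held 67.2% of its 622 UMIs, and without the top 3 of each library the ratio was 0.839. Tshz2, a marker of another layer 5 type, had a ratio of 2.68, and 3 members held 79.3% of its 87 UMIs in SIK3(Ex13del), with a ratio of 0.914 without them. Nxph1, at 21.8 against 46.8 CPM, and Cdh9, at 13.7 against 31.4, kept ratios of 0.421 and 0.310 without those nuclei, yet stood at 1.09 and 1.18 after thinning. The inhibitory markers summed to 249 CPM with SIK3(WT) and 160 with SIK3(Ex13del), but that list holds Erbb4 itself, at the 137 and 70.0 CPM given above. The part of these markers in the ratios was not tested.

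Between the vectors the medians of the function lists ran from -0.23 to 0.22. Immediate-early genes had a median of 0.11, with 10 of 15 higher and 4 past 1.5-fold, and 0.40 in layer 2/3. Of all genes at 5 CPM or more, 4.18% were 1.5-fold higher and 2.24% lower. Jun, an immediate-early transcription factor gene, stood at 15.6 against 7.03 CPM, a ratio of 2.21 that was 1.31 after thinning, and at 15.6 in ad lib sleep too, and Egr1 stood at 75 against 53.9. Later activity genes had a median of 0.22. Genes of the salt-inducible kinase pathway had a median of -0.02, and 0 of 19 passed 1.5-fold. Homer1 stood at 374 against 446 CPM, a ratio of 0.837 (0.778 to 0.899), and Nr1d2, a clock repressor gene, at 113 against 81.5. Oligodendrocyte markers had a median of 0.58, with 7 of 8 higher, and their part in other ratios was not tested.

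**Figure D5:**
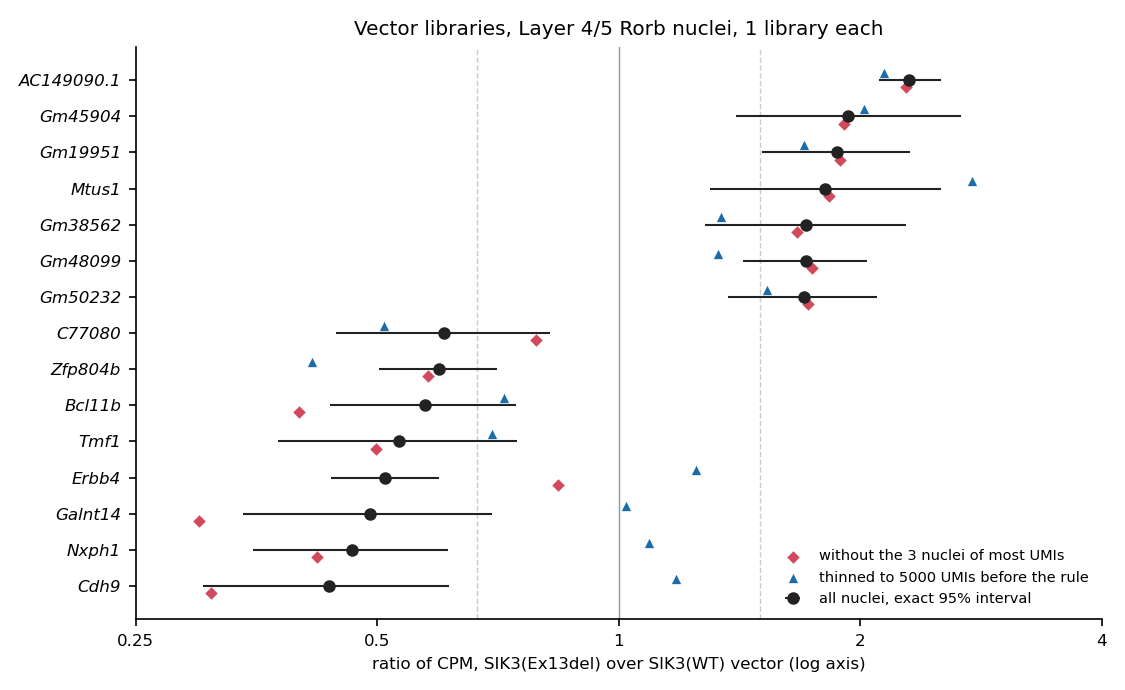
Ratio of CPM with SIK3(Ex13del) over SIK3(WT) (log axis) for the genes of highest and lowest ratio in Layer 4/5 Rorb nuclei, with exact 95% intervals. Diamonds leave out the 3 nuclei of most UMIs and triangles thin nuclei to 5000 UMIs, where Erbb4 moved from 0.512 to 0.839 and 1.25.

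SIK3(WT) was set beside ad lib sleep, although the animals also differed by virus and injection, and this comparison shares the ad lib library with that of sleep deprivation. It gave 43 of 7015 genes (0.613%) higher and 56 (0.798%) lower. Per2, a clock gene, stood at 41.8 CPM with SIK3(WT) against 17.2 in ad lib sleep, a ratio of 2.43 (1.86 to 3.22). It stood at 42.0 with SIK3(Ex13del) and 22.8 in sleep deprivation, so both vector libraries were high. Cry1, another clock gene, stood at 23.7 and 25.2 CPM with the vectors against 13.4 and 14.6 without. Times of day are not in the labels, and their part was not tested. Spred1, at 227 CPM, and Spred2, at 223, had ratios of 1.59 and 1.66, against 1.37 and 1.44 in sleep deprivation, with Spred1 at 1.48 after thinning. Homer1 had 1.52 against 1.24, Kctd8 1.89 against 2.11, Fkbp5 1.77 against 2.58, Arc 2.05 against 3.1, Gm20752 0.454 against 0.183 and Hunk 0.437 against 0.310. After thinning, Homer1 had 1.49 against 1.04, Fkbp5 1.79 against 1.38 and Arc 2.20 against 1.82, so Fkbp5 and Arc changed order. Gm20752 then had 0.551 against 0.234 and Hunk 0.549 against 0.431. Not every gene moved alike, with Hspa8 at 0.912 against 1.51 and Rpl6 at 0.841 against 1.41 after thinning.

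Sleep deprivation against ad lib sleep and SIK3(Ex13del) against SIK3(WT) share no library. Over 7056 genes their log2 ratios had a Pearson r of -0.04 and a Spearman rho of -0.04, given as a description across genes, which are not replicates. Past 1.5-fold, 3 genes were higher in both, Pdcd11, Tmem132a and Zbtb7c, and 4 were lower in both, Cdh9, Grik3, Sst and Zfp804b. Another 3 were higher in the first and lower in the second, and 5 the reverse. The first comparison called 191 genes higher and 201 lower in all, and the second 52 and 27. After thinning, Cdh9, Grik3, Sst and Zfp804b stood at 1.18, 0.765, 0.510 and 0.415 in the second. For Sst, whether its UMIs came from the members themselves was not tested.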

How the data were processed

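Nuclei were isolated from frozen primary motor cortex and profiled with the 10x Chromium 3' kit (v3.1), per the labels' protocols. The matrices the authors deposited hold raw UMI counts. Cell Ranger 6.1.2 and the build mm10 are named in the submitters' processing notes. Cell types were not part of the files used. Of 28619 barcodes, 27085 had 500 or more genes and under 5% mitochondrial UMIs. Counts were summed over the members of each library and divided by their total (CPM). Intervals were exact Poisson for levels, exact conditional for ratios and exact Clopper-Pearson for shares, at 95%. With 1 library per group there was no test, and a size rule stood in its place: 1.5-fold between treatments and 2-fold in all 4 libraries between populations, at a mean of 20 CPM. List medians used log2 of CPM plus 1 over genes of 5 CPM or more. Members and the 23 gene lists, with 467 genes, were chosen with earlier results of these data known. Named genes were the rule markers and other layer 4/5 markers, the 8 highest and 8 lowest ratios of each treatment pair with 100 or more UMIs, the 3 members of highest level and 2 of largest ratio in each list, and the 8 largest differences each way per population. A few genes that this rule names are not reported here or drawn. Other list members and the genes of the Cux2 split were chosen after their values were seen. The vector feature was compared with oligodendrocytes and astrocytes gated by their markers, gates written after the members were chosen. Coordinates are those of GENCODE, and promoters are those of RefSeq. Python 3.11.15, numpy 2.4.6 and scipy 1.17.1 were used, and edgeR 4.0.16 only for TMM factors. The scripts were tested on simulated data.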

Additional observations from a re-analysis of the deposited data

Results flagged for a closer look

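Some genes stood past 1.5-fold in Layer 4/5 Rorb nuclei and moved the other way in a comparison population of the same libraries. Each group was 1 library, and none of these differences was tested. Kcnip1, Sv2c and Tshz2 lay under the mean of 20 CPM used to call genes. Under sleep deprivation Grik3, a kainate receptor subunit, had a ratio of 0.650 in the members and 1.41 in layer 2/3. Kcnip1, a potassium channel partner, had 1.69 against 0.583 in layer 2/3, with 50% of its sleep-deprived UMIs in 3 nuclei.

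For SIK3(Ex13del) over SIK3(WT), Grik3 had 0.649 in the members against 1.67 in layer 2/3 and 1.19 in layer 5. Bcl11b, a layer transcription factor, had 0.573 against 1.18 in layer 6, and Cdh9 0.435 against 1.17 in layer 5. Mtus1 had 1.81 against 0.494 in layer 2/3, Sv2c, a synaptic vesicle gene, 0.506 against 1.95 in layer 6, and Tmf1 0.533 against 1.38 in layer 5. Tshz2 had 2.68 against 0.528 in layer 2/3 and 0.641 in layer 6, but 3 nuclei held 79.3% of its UMIs in SIK3(Ex13del). For SIK3(WT) over ad lib sleep, Erbb4 had 1.94 against 0.571 in layer 2/3, and 1.01 in the members without the 3 nuclei of most UMIs. Grik1 had 0.644 against 1.36 in layer 6, and 0.774 after thinning. Tshz2 had 0.405 against 1.75 in layer 6, and 0.849 after thinning, with 55.4% of its ad lib UMIs in 3 nuclei.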

How the results depend on the processing

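Of the named genes past 1.5-fold under sleep deprivation, 38 of 47 stayed past it with nuclei thinned to 5000 UMIs before the rule and 37 of 48 without doublet-like nuclei. For SIK3(Ex13del) over SIK3(WT) 11 of 26 and 19 of 27 did, and for SIK3(WT) over ad lib sleep 18 of 31 and 25 of 31. Leaving out the 3 nuclei of most UMIs, an alternative chosen after seeing the data, kept 42 of 45, 23 of 27 and 29 of 31. No paired analysis was possible because each group is 1 library. The causes of the changes below were not tested.

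The share of members among excitatory nuclei was 13.4%, 13.6% and 11.5% in ad lib sleep, SIK3(WT) and SIK3(Ex13del) at 2 or more Rorb UMIs, and 9.33%, 9.58%, 9.73% and 7.73% in ad lib sleep, sleep deprivation, SIK3(WT) and SIK3(Ex13del) at 5 or more. It was 10.6% and 8.66% in SIK3(WT) and SIK3(Ex13del) after thinning, and of all kept nuclei it was 5.38%, 5.25%, 5.81% and 4.47%. Genes higher and lower in sleep deprivation numbered 348 and 397 at a floor of 10 CPM, 75 and 70 at 50 CPM and 411 and 430 after thinning, where 103 of the 191 and 110 of the 201 were shared. For SIK3(Ex13del) over SIK3(WT) they numbered 214 and 99 at 10 CPM, 9 and 2 at 50 CPM, 425 and 301 after thinning (23 of 52 and 7 of 27 shared), 94 and 58 at 5 or more Rorb UMIs and 163 and 80 without doublet-like nuclei. With means over nuclei 86 were higher, and with TMM factors 41 were lower. For SIK3(WT) over ad lib sleep they numbered 122 and 214 at 10 CPM, 17 and 16 at 50 CPM, 244 and 260 after thinning, and 88 and 118 without doublet-like nuclei. Against layer 2/3, 54 and 50 were higher and lower at 50 CPM, 200 and 235 at 1.5-fold, and 128 lower after thinning. Against layer 5, 121 and 140 passed at 1.5-fold, with 36 lower at 50 CPM. Against layer 6, 121 and 122 passed at 50 CPM and 407 and 350 at 1.5-fold.

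Directions reversed as follows. After thinning, the MAP kinase feedback median in sleep deprivation was -0.02 and the ratio of Bcl11b was 0.705. After thinning, SIK3(Ex13del) over SIK3(WT) gave 1.25 for Erbb4, 0.306 for Tshz2, 1.15 for Sema3e, 1.09 for Nxph1, 1.18 for Cdh9 and 1.02 for Galnt14, and SIK3(WT) over ad lib sleep gave 0.829 for Erbb4 and 0.521 for Sema3e. Without doublet-like nuclei the ratio of Kcnip1 in sleep deprivation was 0.2, Erbb4 was 1.10 and Nxph1 2.48 for SIK3(Ex13del) over SIK3(WT), and Erbb4 was 0.511 for SIK3(WT) over ad lib sleep. Without the 3 nuclei of most UMIs, Tshz2 was 0.914. The immediate-early median for SIK3(Ex13del) over SIK3(WT) was -0.02 at a floor of 20 CPM. Of the list medians over all alternatives, 145 stayed within 0.1 of the reported value and 15 moved further in sleep deprivation, 168 and 15 for SIK3(Ex13del) over SIK3(WT), and 168 and 16 for SIK3(WT) over ad lib sleep. Depth limits genes under about 20 CPM, where a ratio rests on few UMIs. Thinning left 293, 172, 225 and 147 members in ad lib sleep, sleep deprivation, SIK3(WT) and SIK3(Ex13del). Thinned ratios thus rest on fewer UMIs still.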

Other observations

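AC149090.1 was low in the SIK3(WT) library in every population examined. It stood at 180 CPM in Layer 4/5 Rorb nuclei, 201 in layer 2/3, 224 in layer 5 and 199 in layer 6. The ratios to ad lib sleep were 0.403, 0.424, 0.437 and 0.451. In SIK3(Ex13del) it stood at 415, 449, 448 and 288 CPM. No cause was tested.

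Members of the SIK3(Ex13del) library were also divided by the vector feature, a division written after the design. Since a single vector UMI is not read as transduction, these are groups by count and not transduced and untransduced cells. The 54 members with at least 1 vector UMI stood at 62.6 CPM (45.8 to 83.5) of Bdnf, a neurotrophin gene, against 28.2 (22.0 to 35.7) in the 206 without. Nptx2, a synaptic pentraxin gene, stood at 31.3 (19.8 to 47.0) against 8.47 (5.24 to 12.9), and Sorcs3, a sorting receptor gene, at 388 (344 to 436) against 263 (243 to 284). Egr1 stood at 72.1 against 75.8 CPM and Homer1 at 329 against 387. Only 3 members held 3 or more vector UMIs. These nuclei carried 19 of the 46 Bdnf UMIs, 16 of the 23 Nptx2 UMIs and 103 of the 285 Sorcs3 UMIs of the 54. In the SIK3(WT) library, Bdnf stood at 23 CPM (14.6 to 34.5) in the 78 members with vector UMIs against 29.9 (24.4 to 36.1) in the 313 without. There Nptx2 had 2 UMIs against 15, or 2.0 (0.242 to 7.23) against 4.22 CPM (2.36 to 6.97), and Sorcs3 stood at 226 (198 to 258) against 256 (240 to 273). Nuclei of 1 library are not replicates, so no test was made.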
